A study of Mus musculus with 8 samples.

Results

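The 37 genes described here form the listed set of DNA replication and S phase genes, taken by name from a deposited table of 32285 genes; all 37 were found. They were read in nuclei that were cut to a common depth and sorted into classes by marker genes, with particular attention to nuclei in which Top2a was not detected. The series sorted marrow cells that lacked lineage antigens and carried Sca1 and ckit (LSK cells, in which blood stem cells and their earliest progeny are found) from WT mice and from T58A littermates, which carry a point mutation of MYC, and profiled their nuclei with the 10x multiome assay for RNA and open chromatin. Per genotype the labels give 2 RNA samples, each from 2 mice, and neither strain nor age is stated. The deposited RNA table is named for T58A and carries 4 barcode suffixes that no source ties to a genotype or a replicate. WT and T58A were therefore not compared, the table was treated as 1 sample, and every difference below is a description with no test.

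Before each division a cell copies its genome during S phase. Origins are first loaded with an inactive Mcm2-7 helicase ring by Cdc6 and Cdt1. Mcm10, Cdc45 and the GINS complex then switch the ring on. Polymerases work with the Pcna clamp, and histone chaperones and maintenance factors rebuild chromatin on the copies. Most of these genes are known targets of E2F factors, which drive their transcription in late G1 and S phase, whereas Top2a, the DNA topoisomerase that untangles sister chromosomes, is known to peak later, in G2 and mitosis. Long-lived hematopoietic stem cells are known to divide rarely and their progeny often.

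Promoters in RefSeq (assembly GRCm38.p6), taken as the 250 bases before to 50 bases after an annotated start, were given for 30 of the 37 genes. Sequences are shown because words of the E2F kind were more frequent in this set than in genes of mitosis. The words TTTCCCGC, TTTCGCGC, TTTGCCGC and TTTGGCGC were searched on both strands, and matches may overlap each other. A gene counted when any of its promoters held a word. These were 13 of 30 genes of the set (43.3%) and 22 of 62 of a further list of replication genes (35.5%). They were 1 of 22 genes of a 25-gene mitosis list (4.55%) and 704 of all 27025 genes (2.60%). The word TTTGAA is the core of the CHR element known from promoters of mitotic genes. On either strand it stood in 4 of 30 (13.3%), in 17 of 22 (77.3%) and in 20.2% of all genes. Among all genes with a single promoter the 2 shares were 2.32% and 18.5%. The 13 with an E2F word were Mcm3, Mcm5, Mcm6, Mcm7, Clspn, E2f7, Pola1, Uhrf1, Cdc6, Cdt1, Dtl, Hells and Lig1, and the 4 with TTTGAA were Mcm2, E2f8, Cdc45 and Fen1. The 200 bases before the start of 3 genes with an E2F word (Mcm6, Dtl and E2f7) and of 1 gene with TTTGAA (Mcm2) follow, each 5′ to 3′ on the strand of its gene, with the matched words in capitals. They lie at chr1:128359706-128359905 (minus strand), chr1:191575545-191575744 (minus), chr10:110745239-110745438 (plus) and chr6:88898781-88898980 (minus).
Mcm6: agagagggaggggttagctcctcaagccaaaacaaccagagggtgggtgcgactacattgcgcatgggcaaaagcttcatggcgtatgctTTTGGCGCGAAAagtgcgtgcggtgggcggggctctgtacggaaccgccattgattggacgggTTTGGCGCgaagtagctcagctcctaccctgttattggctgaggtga
Dtl: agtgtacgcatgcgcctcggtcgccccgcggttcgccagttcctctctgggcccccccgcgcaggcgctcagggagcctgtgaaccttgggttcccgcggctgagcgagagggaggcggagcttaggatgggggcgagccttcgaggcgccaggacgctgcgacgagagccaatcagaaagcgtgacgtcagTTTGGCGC
E2f7: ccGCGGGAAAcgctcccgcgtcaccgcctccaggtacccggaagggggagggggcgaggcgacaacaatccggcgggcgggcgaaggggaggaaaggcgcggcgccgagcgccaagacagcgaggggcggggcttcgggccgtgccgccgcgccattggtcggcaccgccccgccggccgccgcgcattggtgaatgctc
Mcm2: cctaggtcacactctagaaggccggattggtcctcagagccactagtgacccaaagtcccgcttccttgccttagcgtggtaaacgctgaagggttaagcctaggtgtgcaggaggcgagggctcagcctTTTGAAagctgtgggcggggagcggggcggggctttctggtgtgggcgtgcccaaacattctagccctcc
Mcm6 held 3 matches, of which those that begin at -110 and -106 overlap and the other begins at -47, counted so that -1 is the base before the start. The match of Dtl begins at -8, that of E2f7 at -198 and that of Mcm2 at -70. A match is a description of letters and shows neither a bound site nor a cause.

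The table held 8708 nuclei with a median of 4147.5 UMIs (unique molecule counts). Barcode sets 1 to 4 held 2999, 721, 2756 and 2232 nuclei, and 36 barcodes stood in 2 or more sets. Sets 1 and 3 stood apart from sets 2 and 4: their median depths without mitochondrially encoded genes were 2301 and 2750.5 UMIs against 6065 and 5419, and those genes took 24.6% and 24.2% of their UMIs against 9.98% and 9.22%. Kit was detected in 54.0% of the nuclei kept, but Ly6a, the gene of Sca1, in only 1.69%, and the lineage genes Itgam in 3.64% and Cd79a in 0.694%. Values per barcode set are given in the order 1 to 4.

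Each of 7495 nuclei with at least 1500 non-mitochondrial UMIs was thinned at random to 1500. A nucleus entered a class when at least 3 thinned UMIs came from at least 2 genes of 1 marker panel and of no other panel. This gave 1543 stem-gated nuclei (Procr, Hlf, Mecom, Fgd5, Rarb), 543 lymphoid-gated (Dntt, Il7r, Arpp21, Cmah, Fgf13), 634 granule-gated (Mpo, Elane, Prtn3, Ctsg, Ms4a3, genes of neutrophil and monocyte granules and their precursors), 136 megakaryocyte-gated (Pf4, Itga2b, Vwf, Rab27b, Mfsd2b) and 445 erythroid-gated nuclei (Car1, Klf1, Epor, Slc25a21, Ermap, Kel, Rhag). These are ranges of a panel count, not cell types. At exactly 3 UMIs stood 295, 91, 115, 56 and 10 of their nuclei, and only the megakaryocyte-gated nuclei had a median above 0 (1 UMI) for another panel, that of the stem genes. Of all kept nuclei 3278 met no panel and 424 met several.

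Top2a was at 0 among the 1500 UMIs in 4137 nuclei and present in 3358. It was detected in 29.0% of stem-gated nuclei (95% interval 26.8 to 31.4), in 43.8% of lymphoid-gated (39.6 to 48.1), in 54.9% of granule-gated (50.9 to 58.8), in 50.7% of megakaryocyte-gated (42.0 to 59.4) and in 72.8% of erythroid-gated nuclei (68.4 to 76.9). A 0 is a limit of detection: of the 4137 nuclei, 1304 (31.5%) had a Top2a UMI at full depth. The classes at Top2a 0 held 1095, 305, 286, 67 and 121 nuclei in the order above, and barcode set 2 held only 3 of the 67 and 3 of the 121.

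At matched depth and with Top2a at 0, stem-gated nuclei carried the fewest replication transcripts of the 5 classes. Erythroid-, granule- and megakaryocyte-gated nuclei carried about double. The mean was 3.24 UMIs of the 37 genes per stem-gated nucleus, 3.93 per lymphoid-gated, 6.0 per megakaryocyte-gated, 6.13 per granule-gated and 6.77 per erythroid-gated nucleus. By barcode set the stem-gated mean was 3.12, 3.07, 2.82 and 3.76, and the granule-gated mean 5.55, 7.18, 5.59 and 6.29, with no overlap. The lymphoid-gated means (4.35, 4.02, 3.45 and 3.79) overlapped the stem-gated range. Each still lay above the stem-gated mean of its own set, in set 4 by little (3.79 against 3.76). The erythroid-gated means (6.92, 5.67, 7.05 and 5.67) did not overlap the stem-gated range. The megakaryocyte-gated means were 6.10, 3.33, 5.86 and 6.67, and that of set 2, on 3 nuclei, lay within the stem-gated range. At least 2 of the genes were detected in 58.9% of stem-gated nuclei (55.9 to 61.8), in 70.2% of lymphoid-gated (64.7 to 75.2), in 83.6% of megakaryocyte-gated (72.5 to 91.5), in 91.3% of granule-gated (87.4 to 94.3) and in 94.2% of erythroid-gated nuclei (88.4 to 97.6). At 2500 UMIs the first 2 turned, with 82.3% of stem-gated and 80.9% of lymphoid-gated nuclei. Without thinning those shares were 79.7%, 89.8%, 92.5%, 98.3% and 97.5%. None of the genes was detected in 17.4% of stem-gated but in only 3.85% of granule-gated and 0.826% of erythroid-gated nuclei.

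Where Top2a was detected, the classes stood much closer. The means were then 6.46 UMIs per stem-gated nucleus, 6.68 per lymphoid-gated, 5.55 per granule-gated, 6.10 per megakaryocyte-gated and 6.23 per erythroid-gated nucleus. Detection of Top2a thus went with a mean about double in stem-gated nuclei, but with no higher mean in granule- or erythroid-gated nuclei. A higher mean can come from more nuclei in S phase or from more RNA per nucleus in it, and these cannot be told apart here.

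**Figure D1:**
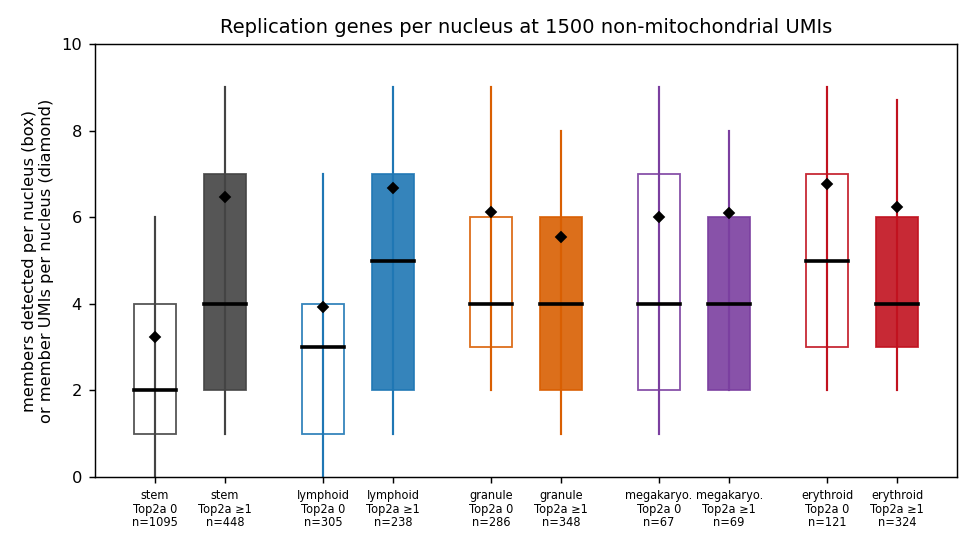
Number of the 37 replication genes detected per nucleus after thinning to 1500 non-mitochondrial UMIs (y axis; boxes span the 25th to 75th percentile with the median as a bar, whiskers the 10th to 90th), and mean UMIs of these genes per nucleus (diamonds), for 5 gated classes with Top2a at 0 (open) and detected (filled). The open stem-gated box is lowest, with a mean of 3.24 UMIs, and the open granule-gated and erythroid-gated means (6.13 and 6.77) lie above their filled counterparts (5.55 and 6.23).

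Free RNA can add to such counts. In 137 nuclei with Top2a at 0 and at least 10 UMIs of a plasma cell panel, a type known to have left the cell cycle, the mean was 1.38 UMIs of the 37 genes, and 21.9% (15.3 to 29.8) had at least 2 of them. Of these nuclei 35 came from barcode set 1 and 96 from set 3, 5.84% held 6 or more of the genes and 54.0% had no UMI of the mitosis list, and how much of their count is free RNA was not tested. Pola1 was detected there in 13.1% of nuclei against 42.1% of stem-gated ones, Hells in 4.38% against 15.9%, Dtl in 8.03% against 19.0% and Pcna in 6.57% against 18.4%. No UMI of Mcm10, E2f7, E2f8, Uhrf1 or Gins2 was found in them, which allows a share of up to 2.19% of nuclei with a UMI at this depth (3 counts of 137; the exact upper bound is 2.66%). Stem-gated shares for Slbp (6.67% against 7.30%), Lig1 (7.21% against 8.03%), Fen1 (2.47% against 3.65%) and Ccne1 (0.183% against 0.730%) did not exceed those values, and no expression is read from them. Other stem-gated shares lay above those values but within their intervals. Among them were Rrm2 (1.55% against 1.46%), Cdc6 (1.64% against 1.46%) and Mcm5 (3.56% against 2.92%). So were Cdt1 and Rad51ap1 (both 2.56% against 2.19%). The same held for Mcm2, Mcm4, Mcm6, Mcm7, Clspn, E2f7, Rrm1, Ung, Gins1, Gins2, Cdc45, Chaf1a, Exo1 and Ccne2. The intervals are wide, and that of Mcm6 (16.9% against 10.9%) reached 17.4%. Folds of all these genes over stem-gated nuclei, given below, may stand over background. The median depth was 2645 UMIs in the plasma-panel nuclei and 3245 in the stem-gated ones.

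Genes were then compared one by one. Levels are CPM, a gene's UMIs per 1000000 non-mitochondrial UMIs, pooled over the nuclei of a class at full depth. A gene with at least 50 counts over both groups was measured, and it was called higher or lower when the pooled ratio of CPM plus 10 reached 1.5-fold and all 4 barcode sets lay on the same side of 1. Printed ratios are of CPM without the added 10, and intervals cover counting error only. Pooled levels mix the barcode sets in unlike shares. Sets 1 to 4 held 262, 109, 349 and 375 stem-gated nuclei at Top2a 0 but 37, 3, 63 and 18 erythroid-gated ones. The part of this mix in the pooled ratios was not tested. The 4 classes below were each set against the same stem-gated nuclei, so these comparisons are not independent.

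With Top2a at 0, the set stood higher in granule- and erythroid-gated nuclei than in stem-gated nuclei, and few genes fell. In granule-gated nuclei 22 of 36 measured members were called higher, where 8.13% of all measured genes were, and 0 lower, where 13.7% were. The members' median log2 ratio was 0.70 (0.55, 0.87, 0.61 and 0.63 by set) against -0.03 for all genes. In erythroid-gated nuclei 15 of 35 were called higher (all genes 13.5%) and 1 lower (22.7%), with a median of 0.68 (0.70, 0.68, 0.79 and 0.41). By median, lymphoid-gated nuclei were the closest to stem-gated ones: 5 of 35 members were called higher (all genes 4.26%), 0 lower (7.68%), and the median was 0.16. In megakaryocyte-gated nuclei only Pola1 of 34 was called higher (all genes 4.3%) and 0 lower (13.7%), but the median was 0.60. With direction asked only of sets 1 and 3, which held at least 20 nuclei of these 2 classes, 16 members were called higher in megakaryocyte-gated nuclei (all genes 7.93%) and 21 in erythroid-gated nuclei (17.5%). Median depth was 3245 UMIs in the stem-gated nuclei, 3809 in lymphoid-gated, 4565.5 in granule-gated, 2933 in megakaryocyte-gated and 6105 in erythroid-gated nuclei, and mitochondrial genes took 13.3%, 13.5%, 17.8%, 17.1% and 28.1% of the UMIs of these classes, Top2a-positive nuclei included. The part of either in the ratios was not tested.

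The number of calls moved with the processing more than the medians did. Over the alternatives run, members called higher ranged from 10 to 28 in granule-gated and 3 to 21 in erythroid-gated nuclei. They ranged from 0 to 7 in lymphoid-gated and 1 to 16 in megakaryocyte-gated nuclei. All-gene shares, in this order, ranged from 4.58% to 10.4%, 6.74% to 17.5%, 2.57% to 5.99% and 2.28% to 7.93%. A second random thinning alone gave 14 of 36 (all genes 7.47%), 13 of 36 (15.2%), 1 of 36 (4.21%) and 7 of 35 (5.53%). At 2500 UMIs 3 of 34 members were called in erythroid-gated nuclei (10.4%) and 0 of 33 in lymphoid-gated nuclei (3.82%). These were not above the all-gene shares, and the medians were 0.65 and 0.006. Without barcode set 1, 2 or 3 the lymphoid-gated count was 1, 2 and 1, and without sets 1 to 4 in turn the megakaryocyte-gated count was 8, 16, 3 and 2.

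**Figure D2:**
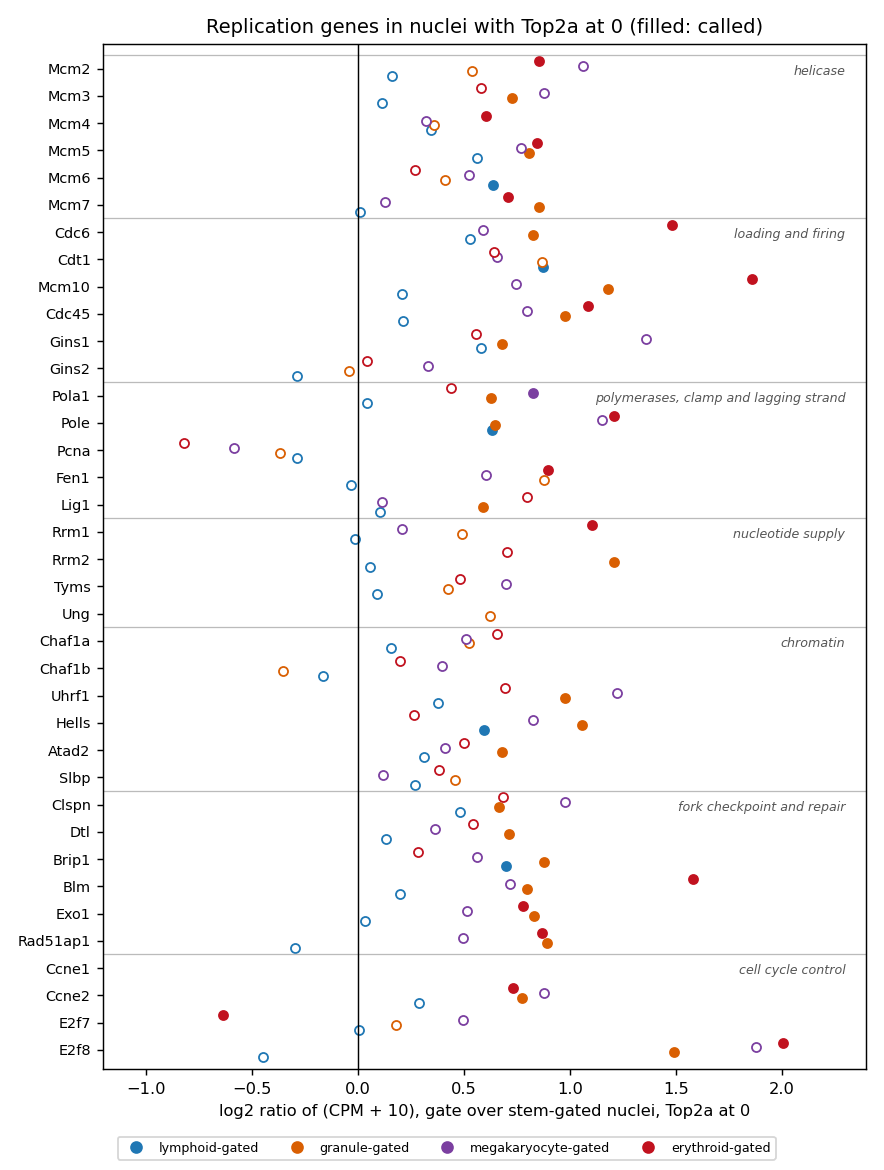
Log2 ratio of CPM plus 10 (x axis) in lymphoid-, granule-, megakaryocyte- and erythroid-gated nuclei over stem-gated nuclei, all with Top2a at 0, for each measured replication gene (y axis, grouped by role); filled points were called. Most points lie right of 0, with medians of 0.16, 0.70, 0.60 and 0.68, while Pcna lies left of 0 in all 4 classes.

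The helicase subunits Mcm2 to Mcm7, which together form the ring that unwinds DNA, had ratios above 1 in all 4 classes. Mcm6 stood at 141, 158, 131 and 169 CPM by set in stem-gated nuclei, at 277, 285, 167 and 231 in lymphoid-gated nuclei, and at 159, 270, 194 and 182 in granule-gated nuclei. Its lymphoid-gated level overlapped the stem-gated one only through set 3, which was above the stem-gated value of that set, and the pooled ratio was 1.59 (1.39 to 1.82), a call; in granule-gated nuclei it was 1.35 (1.18 to 1.55), no call. Mcm7 was 1.96-fold higher in granule-gated (104 against 53.2 CPM; 1.59 to 2.4) and 1.76-fold higher in erythroid-gated nuclei (93.5 CPM; 1.34 to 2.28), but its ratio was 1.01 in lymphoid-gated nuclei. Mcm3 was 1.78-fold higher in granule-gated nuclei (1.44 to 2.20) and Mcm4 1.62-fold higher in erythroid-gated nuclei (1.23 to 2.11). In all, 3 of the 6 subunits were called higher in granule-gated nuclei (Mcm3, Mcm5, Mcm7), 4 in erythroid-gated (Mcm2, Mcm4, Mcm5, Mcm7), 1 in lymphoid-gated and 0 in megakaryocyte-gated nuclei, with median log2 ratios of 0.63, 0.66, 0.25 and 0.65. Of all measured genes 8.13%, 13.5%, 4.26% and 4.3% were called higher in these classes.

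The genes that load the helicase or fire it had the highest median log2 ratio of the 7 roles in granule- and erythroid-gated nuclei, 0.85 and 0.86. Mcm10, which helps to start unwinding, stood at 24.7, 23.3, 17.3 and 22.9 CPM in stem-gated nuclei, at 48.2, 43.6, 93.6 and 66.7 in granule-gated nuclei, and at 87.7, 89.2, 118 and 105 in erythroid-gated nuclei. These 3 ranges overlapped only between granule- and erythroid-gated nuclei. The ratios over stem-gated nuclei were 2.85 (2.12 to 3.82) and 4.83 (3.58 to 6.52), both calls, against 1.23 (0.816 to 1.81) in lymphoid-gated nuclei. Cdc6, a loader of the ring, was 3.99-fold higher in erythroid-gated nuclei (59.9 against 15.0 CPM; 2.71 to 5.85), and Cdc45, a cofactor of the active helicase, 2.57-fold higher in granule-gated nuclei (41.4 against 16.2 CPM; 1.8 to 3.65). Gins1, a subunit of the GINS complex, was 1.83-fold higher in granule-gated nuclei (1.35 to 2.47), with ratios of 1.65 in erythroid-gated and 1.69 in lymphoid-gated nuclei that were not calls. Cdt1, the partner of Cdc6, was called in lymphoid-gated nuclei alone (38.4 against 16.4 CPM; 2.34, 1.61 to 3.39), a direction that reversed at 2500 UMIs (log2 ratio -0.11); its granule-gated ratio was as large (2.33) but set 1 pointed the other way. The sister subunit Gins2 had ratios of 0.949 in granule-gated and 1.05 in erythroid-gated nuclei, on 20 and 12 counts.

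Among polymerase and lagging-strand genes, Pola1, the catalytic subunit of the polymerase that starts each new strand, had the most counts of all members. It stood at 454, 482, 520 and 660 CPM in stem-gated nuclei, at 507, 624, 595 and 586 in lymphoid-gated, at 622, 902, 958 and 917 in granule-gated, at 816, 1215, 998 and 1144 in megakaryocyte-gated, and at 763, 773, 765 and 790 in erythroid-gated nuclei. Every megakaryocyte- and erythroid-gated value lay above every stem-gated one. It was called higher in granule-gated (1.55, 1.45 to 1.66) and megakaryocyte-gated nuclei (1.79, 1.57 to 2.04) and not in erythroid-gated nuclei (1.36). Lig1, the ligase that seals lagging-strand fragments, was 1.59-fold higher in granule-gated nuclei (97.1 against 61.2 CPM; 1.29 to 1.95), and its erythroid-gated ratio of 1.86 was called only with direction asked of sets 1 and 3. Pole, the leading-strand polymerase, chosen after its values were seen, stood at 53.0 CPM in stem-gated nuclei and was called higher in lymphoid-gated (87.6), granule-gated (88.7) and erythroid-gated nuclei (135 CPM; 2.56-fold, 2.02 to 3.21). Fen1, which trims lagging-strand flaps, was called in erythroid-gated nuclei alone (2.36, 1.52 to 3.58). For Lig1 and Fen1 the stem-gated share of nuclei did not exceed that of the plasma-panel nuclei, so these folds stand over a level that may be background.

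Pcna, the sliding clamp, went the other way. It stood at 107, 165, 105 and 166 CPM in stem-gated nuclei, at 82.0, 137, 79.2 and 105 in granule-gated, and at 61.4, 178, 69.8 and 85.0 in erythroid-gated nuclei. The erythroid-gated value exceeded the stem-gated one only in set 2, on 3 nuclei. The pooled ratios were 0.759 (0.635 to 0.902) in granule-gated and 0.536 (0.407 to 0.696) in erythroid-gated nuclei, neither a call over all 4 sets, and the latter a call of lower with direction asked of sets 1 and 3. Of the 37 genes Pcna had the highest level for its length in stem-gated nuclei, 36.2 CPM per kb of gene against 7.07 for Mcm7, the next.

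Of the nucleotide supply genes 1 of 3 measured was called higher in erythroid-gated (all genes 13.5%) and 1 of 4 in granule-gated nuclei (8.13%). Rrm1, the large subunit of ribonucleotide reductase, stood at 65.8, 68.2, 70.1 and 95.6 CPM in stem-gated nuclei and at 197, 89.2, 196 and 165 in erythroid-gated nuclei, and was 2.29-fold higher (1.88 to 2.78). In granule-gated nuclei its ratio was 1.46 (1.21 to 1.75), no call. Rrm2, the small subunit, was 3.82-fold higher there (33.0 against 8.65 CPM, on 51 and 38 counts, 2.46 to 5.98). It was measured only through the granule-gated counts. Its stem-gated share of nuclei was near that of the plasma-panel nuclei (1.55% against 1.46%). Tyms, which makes thymidylate, had ratios of 1.08, 1.43, 1.79 and 1.5 in lymphoid-, granule-, megakaryocyte- and erythroid-gated nuclei, none a call. Ung, a uracil glycosylase, was measured in granule-gated nuclei alone (24 and 29 counts), with no call.

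Chromatin genes were raised most in granule-gated nuclei. Hells, a remodeller needed for DNA methylation, stood at 151, 166, 146 and 185 CPM in stem-gated nuclei, at 238, 274, 228 and 263 in lymphoid-gated, at 323, 407, 310 and 355 in granule-gated, and at 202, 59.5, 255 and 130 in erythroid-gated nuclei. The first 3 classes did not overlap. Hells was 2.15-fold higher in granule-gated (1.92 to 2.4) and 1.54-fold higher in lymphoid-gated nuclei (1.35 to 1.75), and its erythroid-gated ratio was 1.21. Atad2, a chromatin-bound ATPase, was 1.63-fold higher in granule-gated nuclei (406 against 250 CPM; 1.47 to 1.79), and Uhrf1, which guides maintenance methylation to new DNA, 2.19-fold higher (98.4 against 45 CPM; 1.76 to 2.71). No chromatin gene was called in erythroid-gated nuclei over all 4 sets (all genes 13.5% higher and 22.7% lower), where the 6 had a median log2 ratio of 0.44. Chaf1a and Chaf1b, subunits of a histone chaperone, and Slbp, which binds histone mRNA, were called in none of the 4 classes over all 4 sets, with ratios between 0.731 and 1.79.

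All 6 fork checkpoint and repair genes were called higher in granule-gated nuclei (all genes 8.13%), with a median log2 ratio of 0.82. Dtl, which marks Cdt1 for destruction, stood at 143, 151, 187 and 217 CPM in stem-gated nuclei and at 183, 351, 266 and 353 in granule-gated nuclei, a ratio of 1.67 (1.49 to 1.87). Blm, a RecQ helicase, stood at 56.2, 64.9, 44.6 and 92.0 CPM in stem-gated, at 116, 102, 104 and 168 in granule-gated, and at 224, 149, 215 and 285 in erythroid-gated nuclei. Its stem- and erythroid-gated values did not overlap, and the ratios were 1.85 (1.54 to 2.21) and 3.28 (2.73 to 3.94). Brip1, a helicase that partners Brca1, differed in its order: it was higher in lymphoid-gated (114 against 66.2 CPM; 1.72, 1.41 to 2.09) and granule-gated nuclei (130 CPM; 1.97, 1.63 to 2.36), with a ratio of 1.25 (0.947 to 1.63) in erythroid-gated nuclei. Exo1, an exonuclease, and Rad51ap1 were called in erythroid-gated nuclei too (1.98 and 2.42), though Rad51ap1 stood at a log2 ratio of -0.028 there with levels from thinned counts, and Clspn, a Chk1 mediator, was called there only with direction asked of sets 1 and 3 (1.75).

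Among cell cycle regulators the E2F repressors E2f7 and E2f8, close relatives, parted. E2f8 stood at 19.2, 9.98, 21.8 and 18.8 CPM in stem-gated nuclei, at 8.67, 17.1, 11.1 and 8.07 in lymphoid-gated, at 106, 67.5, 79.2 and 55.0 in granule-gated, and at 127, 119, 96.6 and 90 in erythroid-gated nuclei. Granule- and erythroid-gated values lay above all values of the other two. The ratios were 3.80 (2.82 to 5.13) and 5.66 (4.13 to 7.76), both calls, against 0.590 (0.316 to 1.03) in lymphoid-gated nuclei. In megakaryocyte-gated nuclei the ratio was 5.14 (3.11 to 8.19), with no count in the 3 nuclei of set 2. E2f7 stood at 22.3 CPM in stem-gated, 22.5 in lymphoid-gated and 26.6 in granule-gated nuclei, and was called lower in erythroid-gated nuclei at 10.8 CPM (2.07-fold lower, on 9 and 98 counts). Ccne2, a cyclin E, was higher in granule-gated (2.19, 1.48 to 3.22) and erythroid-gated nuclei (2.11, 1.28 to 3.37). Ccne1, the other cyclin E, had 39.6 CPM in erythroid-gated against 2.5 CPM in stem-gated nuclei, on 33 and 11 counts, too few to be measured.

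**Figure D3:**
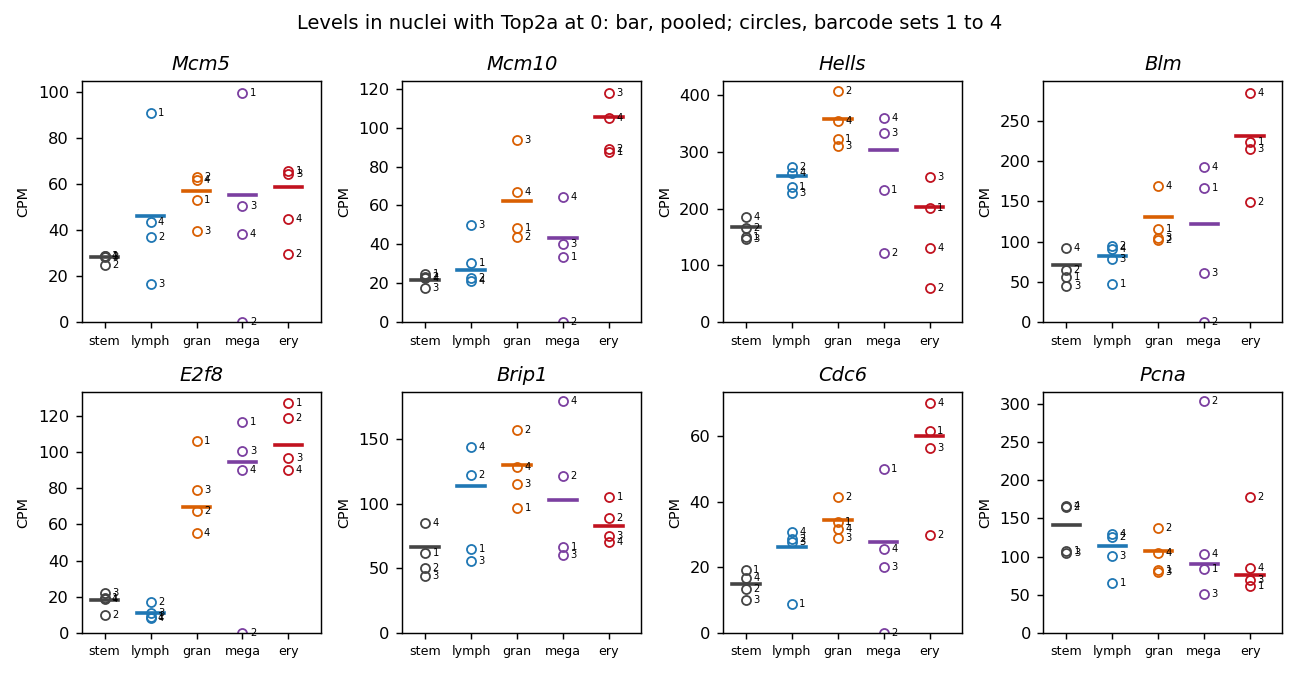
CPM (y axis, from 0) of 8 replication genes in stem-, lymphoid-, granule-, megakaryocyte- and erythroid-gated nuclei with Top2a at 0; the bar is the pooled level and each circle a barcode set (1 to 4). Hells rises from 167 to 358 CPM between stem- and granule-gated nuclei and E2f8 from 18.4 to 104 CPM between stem- and erythroid-gated nuclei, while Pcna stands at 141 and 75.5 CPM in these classes; set 2 of the last 2 classes rests on 3 nuclei.

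Genes of mitosis moved with the set even where Top2a was at 0. Of the mitosis list 20 of 22 measured genes were called higher in granule-gated (all genes 8.13%) and 21 of 22 in erythroid-gated nuclei (13.5%). In lymphoid-gated nuclei 2 of 19 were called higher (4.26%) and in megakaryocyte-gated nuclei 5 of 18 (4.3%). The median log2 ratios were 1.15, 1.65, 0.23 and 0.46 in this order. The list's mean was 1.12 UMIs per stem-gated nucleus, 1.41 lymphoid-gated, 2.91 granule-gated, 2.37 megakaryocyte-gated and 5.22 erythroid-gated, so a Top2a of 0 did not remove cycling transcripts to the same degree in each class. When all 25 mitosis genes were required to be at 0, 504 stem-gated, 120 lymphoid-gated and 56 granule-gated nuclei were left, too few in the other classes (19 and 3). The mean of the replication genes was then 2.66, 3.38 and 5.88 UMIs. Of 23 measured members 10 were called higher in granule-gated nuclei (all genes 5.87%) and 0 lower (12.5%), with a median log2 ratio of 0.98. They included 4 of 6 helicase subunits and 1 of 5 measured fork genes, Dtl, but the barcode sets held only 8, 18, 13 and 17 granule-gated nuclei. By the pooled 1.5-fold alone, 6 of 6 helicase subunits and 4 of 5 fork genes passed (all genes 12.7%). The median log2 ratios of these roles were 1.04 and 0.98. In these granule-gated nuclei Dtl stood at 412 against 137 CPM (3.02, 2.4 to 3.78) and Hells at 404 against 137 (2.96, 2.35 to 3.72). Uhrf1 stood at 136 against 33.9 (4.02, 2.61 to 6.11). In lymphoid-gated nuclei Gins1, Dtl and Hells of 24 were called higher (all genes 5.11%) and 0 lower (9.32%), with a median of 0.39.

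A further list of 83 replication and S phase genes was read in the same nuclei. In granule-gated nuclei 25 of 78 were called higher (all genes 8.13%) and 1 lower (13.7%), with a median log2 ratio of 0.41. In erythroid-gated nuclei 27 of 77 were called higher (13.5%) and 4 lower (22.7%), with a median of 0.51. In lymphoid-gated nuclei 4 of 78 were called higher, near the 4.26% of all genes, and 0 lower (7.68%), with a median of 0.20. In megakaryocyte-gated nuclei 13 of 71 were called higher (4.3%) and 2 lower (13.7%), with a median of 0.52. Brca1, the repair gene that Brip1 partners, was 2.62-fold higher in granule-gated nuclei (127 against 48.5 CPM; 2.15 to 3.20). Fancd2, a gene of crosslink repair, was 4.64-fold higher in erythroid-gated nuclei (125 against 26.9 CPM; 3.53 to 6.10), ahead of Timeless, a fork protection gene (3.82), and Orc2, a subunit of the origin recognition complex (3.51). Cdc7, the kinase that fires loaded origins, led in lymphoid-gated nuclei (58.7 against 31.4 CPM; 1.87, 1.40 to 2.48). Samhd1, which degrades nucleotides and was chosen after its values were seen, was lower in granule-gated nuclei (49.2 against 104 CPM).

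Without a condition on Top2a, granule- and erythroid-gated nuclei stood closer to stem-gated ones, with medians of 0.32 and 0.35 in place of 0.70 and 0.68, and lymphoid-gated nuclei did not. Members called higher were 4 of 37 in granule-gated nuclei (all genes 7%), 11 of 37 in erythroid-gated (13.9%), 1 of 36 in lymphoid-gated (4.1%) and 3 of 36 in megakaryocyte-gated nuclei (4.83%); called lower were 0, 2, 0 and 0 (all genes 13%, 22.5%, 7.48% and 12.6%). The shares outside the erythroid-gated class were near those of all genes, and the medians were 0.32, 0.35, 0.22 and 0.29. E2f8 (74.4 against 37.2 CPM; 2.00, 1.69 to 2.38) and Mcm10 (64.5 against 36.6; 1.76, 1.47 to 2.11) were among the 4 of granule-gated nuclei, with Rrm2 and Fen1. In erythroid-gated nuclei Ccne1 had the widest ratio (38.6 against 3.76 CPM, ratio 10.3, 6.67 to 16.3), but on 26 stem-gated counts. It was thus measured only through the group where it was high. Its stem-gated share of nuclei at Top2a 0 did not exceed that of the plasma-panel nuclei. Cdc6 followed (73.6 against 21.5 CPM, ratio 3.41, 2.76 to 4.23). Pcna (76.8 against 145) and E2f7 (15.6 against 41.9) were lower in erythroid-gated nuclei by 1.88- and 2.70-fold. The granule-gated count was 8 without barcode set 4, the megakaryocyte-gated count 6 without set 1, and the lymphoid-gated count 2 without set 2 and 3 without set 4. With direction asked only of sets of at least 20 nuclei the megakaryocyte-gated count was 4 (all genes 5.53%).

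Where Top2a was detected, 5 of 36 members were called higher in erythroid-gated nuclei, near the 14.3% of all genes, and 4 lower, under their 20%, with a median log2 ratio of 0.05. Ccne1 (38.2 against 5.95 CPM; 6.42, 3.68 to 12), Rrm2 (2.66), Cdc6 (2.39), Mcm10 (1.70) and Blm (1.60) were higher. E2f7 (17.3 against 76.2 CPM), Brip1 (95.9 against 207), Tyms (48.4 against 88.1) and Hells (152 against 253) were lower. In granule-gated nuclei Rrm2 and Fen1 of 35 were called higher (all genes 7.28%) and E2f7 lower (11.1%), with a median of -0.10. In lymphoid-gated nuclei Rrm2 of 34 was called higher (4%) and Tyms lower (7.49%), with a median of -0.01. In megakaryocyte-gated nuclei E2f8 of 32 was called higher (4.7%), and Mcm7, Uhrf1 and Chaf1b lower (11.4%), with a median of -0.28. Rrm2 had 29 counts in stem-gated nuclei with Top2a detected, and Ccne1 had 26 in all stem-gated nuclei. For Fen1, 76 of 116 stem-gated counts were at Top2a 0. Rrm2, Ccne1 and Fen1 were thus measured here only through the group where they were high.

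The next comparison set nuclei with Top2a detected against those with Top2a at 0, over all kept nuclei. Of 37 members 11 were called higher (all genes 1.94%) and 0 lower (1.32%), with a median log2 ratio of 0.46. By role these were 5 of 6 fork genes, 2 of 4 cell cycle regulators (E2f7 and E2f8), 2 of 4 nucleotide supply genes and 2 of 6 loading and firing genes; differences between roles were not tested. E2f8 was 2.46-fold higher (84.6 against 34.3 CPM; 2.24 to 2.71), E2f7 2.41-fold (63.2 against 26.2; 2.16 to 2.69), Rad51ap1 2.34-fold and Brip1 2.01-fold (188 against 93.2; 1.90 to 2.14). None of the 6 helicase subunits was called, their median was 0.11, and Mcm6 stood at 188 CPM on both sides (0.997, 0.951 to 1.05). All 25 mitosis genes were called higher, with a median of 1.42; Top2a, which made the split, is among them.

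Within stem-gated nuclei the same split gave larger differences. There 19 of 36 members were called higher (all genes 3.19%) and 0 lower (1.78%), with a median log2 ratio of 0.61. E2f8 stood at 115, 79.0, 52.8 and 55.6 CPM with Top2a detected against 19.2, 9.98, 21.8 and 18.8 without (3.79, 2.90 to 4.99). Brip1 stood at 170, 250, 165 and 227 CPM against 61.7, 49.9, 43.7 and 85.4 (3.12, 2.70 to 3.62), and E2f7 at 76.2 against 22.3 CPM (3.42, 2.67 to 4.40). For these 3 genes no barcode set with Top2a at 0 reached any set with Top2a detected. Pola1 (1005 against 566 CPM; 1.77, 1.68 to 1.88) and Atad2 (518 against 250; 2.07, 1.91 to 2.25) were higher too, whereas no helicase subunit was called and Pcna had a ratio of 1.08 (0.945 to 1.22). In lymphoid-gated nuclei 16 of 34 were called higher (all genes 3.88%), 2 of the 6 helicase subunits among them, and 0 lower (2.63%), with a median of 0.55. Median depth was 4711 UMIs in the stem-gated nuclei with Top2a and 3245 in those without.

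Granule- and erythroid-gated nuclei gave no such calls. In granule-gated nuclei 0 of 35 members were called higher (all genes 1.26%) and 0 lower (0.512%), with a median log2 ratio of -0.08, while 16 of 25 mitosis genes were called higher. Hells stood at 188, 304, 169 and 272 CPM with Top2a detected against 323, 407, 310 and 355 with Top2a at 0 (0.702, 0.623 to 0.791), lower in every set but short of a call. Mcm6 (159 against 207 CPM; 0.767, 0.658 to 0.894) and Dtl (235 against 314; 0.747, 0.659 to 0.847) were likewise short of a call, and 5 of the 6 helicase subunits had ratios below 1. In erythroid-gated nuclei 0 of 34 were called higher (all genes 0.696%) and 0 lower (0.597%), the median was -0.02, and only 2 of 24 mitosis genes were called higher. In megakaryocyte-gated nuclei, with 15 members measured, 0 were called higher (4.79%) and Hells lower (1.52%; 186 against 304 CPM, 0.614, 0.436 to 0.863). Whether the contrast differed between classes was not tested.

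**Figure D4:**
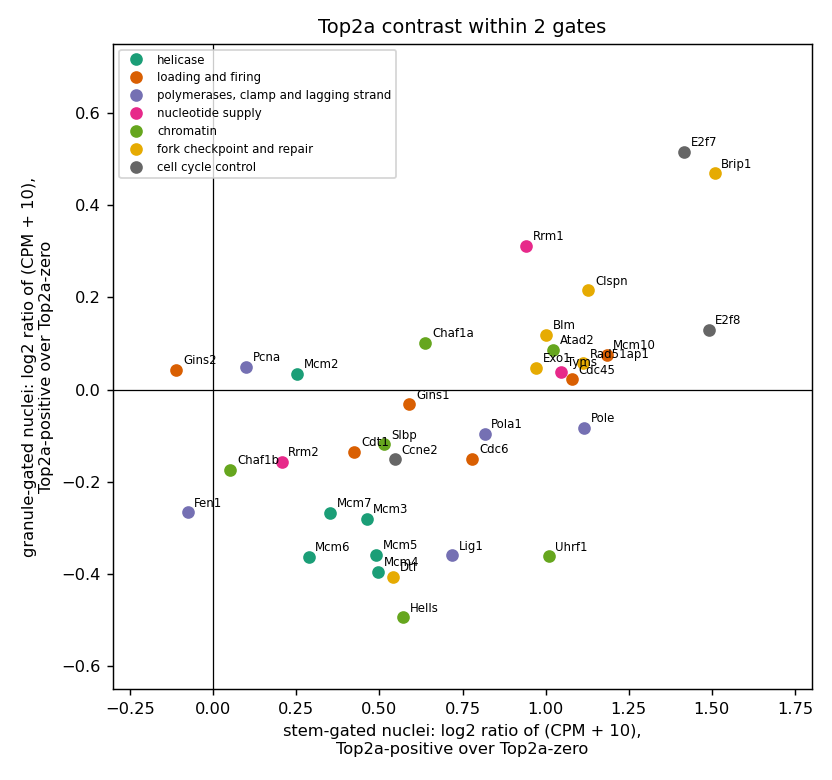
Log2 ratio of CPM plus 10 between nuclei with Top2a detected and nuclei with Top2a at 0, in stem-gated nuclei (x axis) and in granule-gated nuclei (y axis), 1 point per replication gene, coloured by role. Points spread to the right (median of measured genes 0.61) but around 0 vertically (median -0.08); the helicase subunits other than Mcm2 lie below 0 on the y axis, and E2f7 and Brip1 are highest on it.

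Nuclei with Top2a at 0 held 55.2% of all thinned UMIs, 44.4% of those of the 37 genes (17720 of 39951; 43.9 to 44.8) and 25.4% of those of the mitosis list without Top2a. Within the set the share ran from 26.0% for Ccne1 and 27.5% for E2f7 to 53.3% for Mcm6, 53.6% for Chaf1b, 53.6% for Pcna and 62.8% for Ung. All 6 helicase subunits lay between 46.9% and 53.3%, above the share of the set, and the 6 fork genes except Dtl (50%) lay between 31.0% and 39.1%.

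The genes were also detected together in single nuclei with Top2a at 0. Nuclei were split by how many of the other 36 genes were found in them. Hells was detected in 6.75% of nuclei with 0 or 1 other member, in 17.6% with 2 or 3, in 38.1% with 4 to 6 and in 50.3% with 7 or more. Dtl went from 9.88% to 50.2%, Brip1 from 2.36% to 23.1% and Uhrf1 from 2.36% to 21.7% between the first and the last group. Pcna went only from 13.1% to 20.1%, a ratio of 1.53, the lowest of the 37, against 7.45 for Hells and 17.1 for E2f7. All nuclei here had 1500 UMIs, but classes of nuclei were pooled, and in such sparse counts the figures describe the table and are no test.

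**Figure D5:**
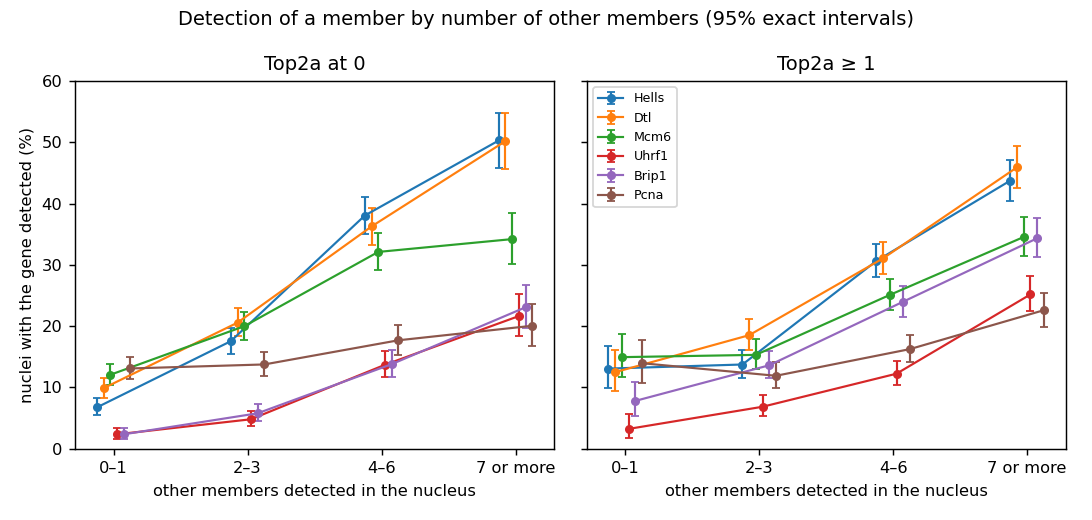
Share of nuclei (y axis, %) in which a replication gene was detected at 1500 UMIs, by the number of other members of the set detected in the same nucleus (x axis), for 6 genes, with Top2a at 0 (left) and detected (right); bars are exact 95% intervals. With Top2a at 0 Hells climbs from 6.75% to 50.3% and Pcna only from 13.1% to 20.1%.

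Nuclear RNA is rich in introns, so counts depend on gene length and on neighbours. Across the 37 genes the log2 ratio between stem-gated nuclei with and without Top2a went with gene length (Spearman 0.67), but that between granule- and stem-gated nuclei with Top2a at 0 did not (0.00); genes are not independent replicates, and no test was made. The annotated spans of 10 members overlap another gene: Mcm7, E2f8, Ung, Gins2, Cdc45, Chaf1a, Dtl, Fen1, Lig1 and Ccne2. Use of strand in counting is not given in the sources used here, so reads of these genes and of their neighbours may not be told apart.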

How the data were processed

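Nuclei were profiled with the 10x multiome assay, and only the RNA table was used here; 4 ATAC samples were not analysed here. The authors deposited whole-number UMI counts per gene and nucleus. Cell Ranger ARC, Seurat, Signac and the mm10 build are named per the submitters' processing notes; their versions, the annotation, filters on nuclei and intron counting are not given in the sources used here. No doublet caller was run, and the deepest 5% of nuclei were left out as an alternative; no column was left unused. Each nucleus was thinned to 1500 UMIs with a fixed seed, gated on 12 panels and split by Top2a. Levels were pooled as CPM at full depth, and intervals are exact 95% Poisson or binomial (Clopper-Pearson) ones that cover counting error only; a count of 0 allows 3 counts. The table counted as 1 sample, so no test was made. The call rule was run on simulated pooled counts, with known folds in genes of at least 200 counts. Such counts cover neither variation between nuclei nor members with fewer counts, and no support for the calls is drawn from them. In each comparison and role, the 3 members with the most counts were named in full, and of other pathway genes up to 3 with at least 200 counts and the largest ratio; others were chosen after their values were seen. The comparisons among nuclei with Top2a detected, and between nuclei with and without it, were added after the data were seen. Members and lists were chosen with earlier results of these data known, and some lists came from that earlier work. Python 3.11.15, numpy 2.4.6, scipy 1.17.1, pandas 2.3.3 and matplotlib 3.10.9 were used. One lineage marker is not reported here.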

Additional observations from a re-analysis of the deposited data

Results flagged for a closer look

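In 9 of 37 members the Top2a contrast pointed 1 way in all sets of a class and the opposite way in all of another. These differences between classes were not tested. No minimum fold was asked, and the share of all genes with such a pattern is not given. In set 2 the erythroid-gated values rest on 3 nuclei with Top2a at 0 and 5 with it detected. The megakaryocyte-gated values of that set rest on 3 and 6. Values are log2 ratios of CPM plus 10, Top2a detected over Top2a at 0. Among helicase subunits, Mcm3 stood at 0.70 in lymphoid-gated, -0.17 in erythroid-gated and -0.36 in megakaryocyte-gated nuclei. Mcm4 stood at 0.49 in stem-gated, 0.27 in lymphoid-gated and -0.25 in erythroid-gated nuclei, and Mcm5 at 0.49 in stem-gated and -0.36 in granule-gated nuclei. Mcm6 stood at 0.29 in stem-gated, -0.36 in granule-gated and -0.58 in megakaryocyte-gated nuclei, and Mcm7 at 0.35 in stem-gated, 0.69 in lymphoid-gated and -0.27 in granule-gated nuclei. Cdc45 stood at 1.08 in stem-gated, 0.77 in lymphoid-gated and -0.36 in erythroid-gated nuclei. Lig1 stood at 0.72 in stem-gated, 0.52 in lymphoid-gated and -0.36 in granule-gated nuclei. Of the chromatin genes, Hells stood at 0.57 in stem-gated, -0.49 in granule-gated and -0.68 in megakaryocyte-gated nuclei, and Uhrf1 at 1.01 in stem-gated, 0.61 in lymphoid-gated and -0.36 in granule-gated nuclei. Of the negative values only that of Hells in megakaryocyte-gated nuclei was a call.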

How the results depend on the processing

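Over the alternatives below, 3.89% to 10.3% of all genes were called higher in granule-gated nuclei without and 4.58% to 10.4% with Top2a at 0. In erythroid-gated nuclei the ranges were 7.63% to 17.7% and 6.74% to 17.5%, and in lymphoid-gated nuclei 2.4% to 5.78% and 2.57% to 5.99%. In megakaryocyte-gated nuclei they were 2.73% to 6.89% and 2.28% to 7.93%. With Top2a against without it the range was 1.11% to 3.53%. Counts below are of members called higher than in stem-gated nuclei, first without and then with Top2a at 0 where both are given. Shares are of nuclei with at least 2 members, at Top2a 0. With levels from thinned counts they were 2 and 3 lymphoid-gated, 11 granule-gated, 5 megakaryocyte-gated, 7 and 9 erythroid-gated, and 20 with Top2a against without it; Rad51ap1 in erythroid-gated nuclei reversed to -0.028 (log2). At 1000 UMIs they were 2 and 2 lymphoid-gated and 7 and 5 megakaryocyte-gated, with shares of 44.1% stem-, 55.7% lymphoid-, 79.9% granule-, 68.4% megakaryocyte- and 78.9% erythroid-gated. At 2500 UMIs they were 0 and 0 lymphoid-gated, 14 granule-gated at Top2a 0, 5 and 4 megakaryocyte-gated, and 7 and 3 erythroid-gated, with shares of 82.3% stem-, 80.9% lymphoid-, 94.8% granule- and 98.6% erythroid-gated; Cdt1 in lymphoid-gated nuclei reversed to -0.11. At 2000 UMIs with mitochondrial genes they were 0 and 0 lymphoid-gated, 11 granule- and 5 megakaryocyte-gated at Top2a 0, and 6 and 6 erythroid-gated, with shares of 64.1% stem-, 86.2% granule- and 88.3% erythroid-gated. Another seed gave 1 lymphoid-, 14 granule- and 7 megakaryocyte-gated at Top2a 0. A gate minimum of 2 gave 0 and 2 lymphoid-gated, and 13 granule- and 5 megakaryocyte-gated at Top2a 0, with a granule-gated share of 87.1%. A gate minimum of 5 gave 3 and 3 lymphoid-gated, 8 granule-gated without the Top2a condition and 2 megakaryocyte-gated at Top2a 0, with shares of 55.9% stem-, 94.7% granule- and 93.5% megakaryocyte-gated. An added CPM of 1 gave 3 lymphoid- and 7 granule-gated without, and 2 megakaryocyte-gated with, the Top2a condition. Without the deepest 5% they were 2 and 0 lymphoid-gated, 8 granule-gated without, and 2 megakaryocyte- and 8 erythroid-gated with, the condition. Without barcode set 1 they were 1 lymphoid-gated at Top2a 0 and 6 and 8 megakaryocyte-gated, with a lymphoid-gated share of 64.2%; without set 2, 2 and 2 lymphoid-gated and 16 megakaryocyte-gated at Top2a 0; without set 3, 1 lymphoid- and 3 megakaryocyte-gated at Top2a 0, with a stem-gated share of 62.0%; without set 4, 3 lymphoid- and 8 granule-gated without and 2 megakaryocyte-gated with the condition, with a stem-gated share of 55.4%. With direction asked in sets of at least 20 nuclei, 16 were megakaryocyte-gated at Top2a 0. Without Pola1 and Atad2 the shares were 47.3% stem-, 56.4% lymphoid-, 81.5% granule- and 88.4% erythroid-gated. With Top2a at 0 at full depth, 2 lymphoid-, 13 granule- and 6 megakaryocyte-gated members were called, and with the whole mitosis list at 0, 3 lymphoid- and 10 granule-gated. The cause of these moves was not tested. Of the alternatives, 17 were planned and 2 were chosen after seeing the data: direction in sets of at least 20 nuclei, and leaving out Pola1 and Atad2.

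The members' median log2 ratio at Top2a 0 ranged from 0.52 to 0.98 in granule-gated, 0.42 to 1.03 in erythroid-gated, 0.37 to 0.84 in megakaryocyte-gated and 0.01 to 0.39 in lymphoid-gated nuclei over the alternatives run. Of 209 summary values under alternatives 126 stayed within their limit, and of 1271 values of called members 969 stayed called, 300 kept their direction without a call and 2 reversed. Lower minimum counts, 20 and 1, changed no summary count past that limit. Erythroid-gated nuclei with Top2a at 0 at full depth, and megakaryocyte- and erythroid-gated nuclei with the mitosis list at 0, were not run, having too few nuclei. No paired analysis was possible because the barcode suffixes carry no tie to a genotype or replicate number.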
